A study of Mus musculus with 4 samples.

Results

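The genes described are 40 genes of the mitotic spindle and of chromosome segregation, namely the mitotic kinases, spindle motors, kinetochore and checkpoint proteins, condensin subunits and cytokinesis factors that carry a duplicated genome into daughter cells. They were taken by symbol from a list of such genes, by a rule that uses no measured value, and all 40 had a row among the 18200 genes of the deposited table. The list itself was chosen with earlier results of these data known. The RNA was that of polysomes, the messenger RNA on which several ribosomes sit, from mouse cells that the labels call ADSCs, of genotype WT, in a series whose title concerns mesenchymal stem cells. Cells labelled Scrambled, the control, were compared with cells labelled IFIT1 knockdown, which the design text gives as sh-Ifit1, with 2 libraries in each group. Replicate 1 of each group was labelled batch 1 and replicate 2 batch 2. No total RNA was used here, so less of a messenger RNA and less loading of it with ribosomes cannot be told apart. In these bulk libraries fewer dividing cells and less RNA per dividing cell cannot be told apart either. Nothing states that the replicates were separate cultures, so the p-values below speak of the spread among 4 libraries, and that spread may be technical.

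In mitosis, kinesin motors and microtubule regulators build a bipolar spindle from the centrosomes, and kinetochores on the centromeres attach each chromatid to it. The spindle assembly checkpoint holds back the anaphase-promoting complex until every kinetochore is attached, after which separase cuts cohesin and the chromatids part. Many of these genes are transcribed late in the cell cycle through promoter elements bound by NF-Y and by the DREAM and MuvB complexes, and their messenger RNA is low in cells that are not dividing.

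The targeted gene went against its label. Ifit1 (Entrez 15957) stood at 1.93 and 1.91 FPKM (fragments scaled to gene length and library depth) in the scrambled-labelled libraries. It stood at 13.9 and 14.8 FPKM in the knockdown-labelled ones, a 7.47-fold difference in the direction opposite to a knockdown. All directions below are therefore those of the knockdown-labelled against the scrambled-labelled libraries, and single libraries are called by their label and replicate number (scrambled 1, knockdown 2). Whether labels or columns were exchanged between the groups was not tested, and if they were, every higher and lower below would trade places. Each library held between 24448610 and 29825005 recovered fragments over 15790 genes. Of 14 markers of mesenchymal stromal cells, 11 were tested, 8 of them higher and 3 lower, and their summed level was 1250 FPKM in both scrambled-labelled libraries against 962 and 979. Most of that sum was Vim, which was lower. Thy1 was 8.29-fold higher, with means of 3.70 against 30.6 FPKM, a larger log2 change (2.75) than that of any of the mitotic genes. The collagen genes Col1a1 and Col1a2 went the other way, 3.2-fold and 2.94-fold lower (log2 changes -1.54 and -1.53). Those drops also exceeded any among the mitotic genes, of which the steepest was -1.50 for Racgap1. Cd44 was 1.54-fold higher, while Nt5e was at most 0.0347 and Pdgfra at most 0.121 FPKM in any library. Leukocyte markers summed to between 0.427 and 0.491 FPKM with no entry for Ptprc, endothelial markers to at most 0.0191, and adipocyte markers to 5.76 and 5.79 FPKM against 2.72 and 2.80. Epithelial markers summed to 167 and 162 against 96.8 and 97.9 FPKM, nearly all from Krt19, with Epcam at or below 0.0124. The other tested epithelial markers, the keratins Krt8 and Krt18, were higher, 9.14-fold and 6.15-fold, from means of 0.279 and 0.47 FPKM. The part of these marker differences in the results below was not tested.

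Most of the mitotic genes were lower in the knockdown-labelled libraries. Of the 38 with a mean of at least 1 FPKM over the 4 libraries, 22 were lower (57.9%), 4 were higher (10.5%) and 12 did not pass limma's test at an adjusted p of 0.05. Over all 8750 genes tested, 41.2% were lower, 27.4% higher and 68.7% past the threshold in either direction, so being called was common in the table. The log2 changes (knockdown-labelled minus scrambled-labelled libraries, of log2(FPKM + 1), a scale that understates the change of low genes) had a median of -0.49 over the 38 genes and of -0.02 over all genes tested. They ran from -1.50 for Racgap1 to 0.78 for Cenpa. The higher genes were Cenpa, Pttg1, Kif20b and Spc24, and the call of Spc24 did not hold under every setting tried. The summed level of the 40 genes was 1797 and 1718 FPKM in scrambled 1 and 2 and 1373 and 1442 FPKM in knockdown 1 and 2. Cenpf and Mki67 lay below 1 FPKM and were not tested. The values rested on 173 to 18495 fragments per gene and library, counted as the smallest whole numbers that fit, so the true numbers can be a multiple of these.

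**Figure D1:**
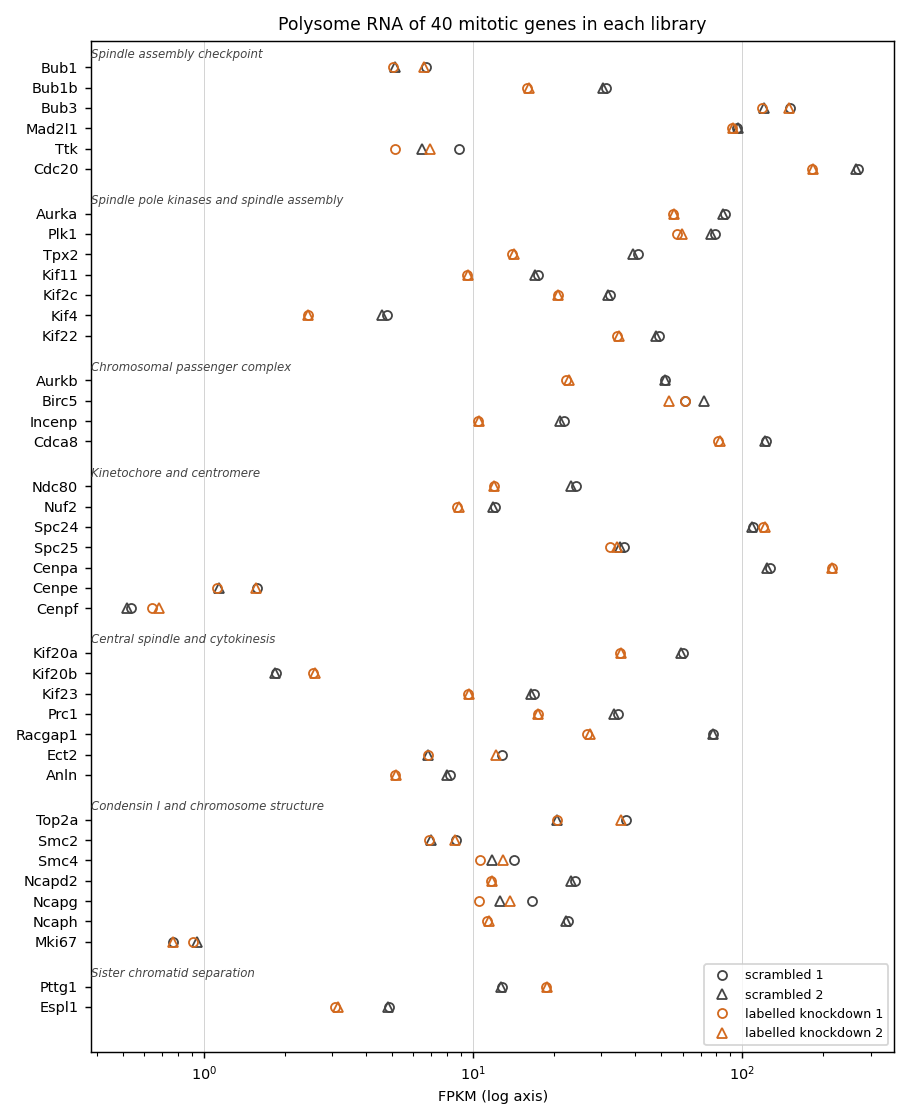
FPKM of the 40 mitotic genes on a log axis, 1 point per library, grouped by role (grey for scrambled-labelled libraries, orange for the knockdown-labelled ones, circles for replicate 1 and triangles for replicate 2). In most rows the replicates of a group coincide, whereas for Ect2 and Top2a each circle of one group lies on the triangle of the other.

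The spread between replicates took sharply different forms among these genes. For 25 of the 38 tested (65.8%) the replicates of each group lay together and the groups apart, as they did for 64.4% of all genes tested. Among these 25 the replicates were at most 4.43% apart in the scrambled-labelled libraries and 4.23% in the knockdown-labelled ones. Another 7 (18.4%, against 18.0% of all genes tested) were crossed: scrambled 1 matched knockdown 2, scrambled 2 matched knockdown 1, and the members of each group differed. The crossed genes were Bub1, Bub3, Cenpe, Ect2, Top2a, Smc2 and Smc4. The cut-off behind these patterns, 0.15 on the log2 scale or 1.11-fold, was chosen after the values were seen.

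The crossed genes set the limit of what the comparison could show. Their replicates differed by 1.2-fold to 1.88-fold in the scrambled-labelled libraries, with a median of 1.3, whereas the crossed pairs differed by a median of 1.02-fold. All 7 were high in scrambled 1 and knockdown 2 and low in scrambled 2 and knockdown 1. Among all genes tested, 562 crossed genes had that orientation and 1011 had the other. None of the 7 passed, which the pattern fixes in a fit without a block, and their standard errors ran from 0.145 to 0.454 against 0.015 to 0.037 for the 25 whose replicates lay together. The scrambled-labelled replicates of the crossed genes differed by a median of 7.67 counting SDs (the spread that Poisson counting of fragments alone would give), and the knockdown-labelled ones by 7.91. The corresponding medians for the crossed pairs were 1.01 and 0.471 counting SDs. For the 25 whose replicates lay together, replicates differed by a median of 0.879 counting SDs in the scrambled-labelled libraries and 0.288 in the knockdown-labelled ones. They were less than 1 counting SD apart for 16 of the 25 in the scrambled-labelled libraries and for 22 in the knockdown-labelled ones. Their small standard errors and p-values rest on that close agreement. The crossed genes were picked for wide replicates and close crossed pairs, and the 25 for close replicates, so these values describe them and test nothing. With standard errors held at no less than the counting error, the mitotic genes still counted 22 lower and 4 higher.

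A further 3 genes, Ttk, Ncapg and Birc5, had replicate differences of opposite sign in the groups, each past the cut-off, without matching across. In all, 10 of the 38 differed between replicates in opposite directions, 9 of them with scrambled 1 and knockdown 2 high and Birc5 the other way. None of the 38 differed between replicates in the same direction in both groups past the cut-off, and over all genes tested 1932 did so in opposite directions and 7 in the same direction. Across the 8750 genes, which share the 4 libraries and are not independent, the replicate difference in one group and that in the other had Pearson's r of -0.83. The remaining tested genes were Mad2l1, level in all 4 libraries, and Spc24 and Spc25, which lay near the cut-off. Whole fragments were recovered at each library's own depth for all 7 crossed genes and for 99.6% of the crossed genes of the table. What produced the crossing was not tested.

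**Figure D2:**
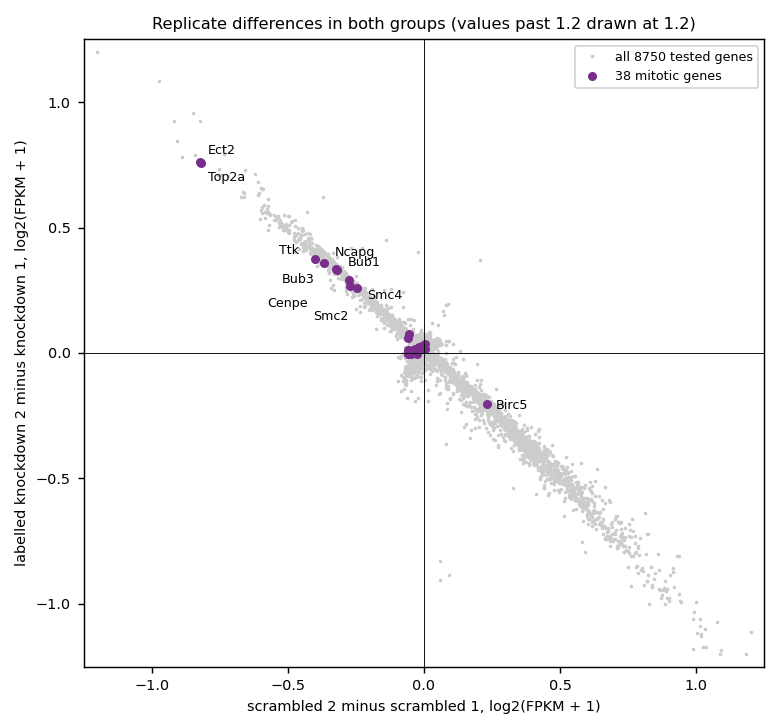
Difference between replicates 2 and 1 (log2 of FPKM + 1) in the scrambled-labelled libraries on the x axis and in the knockdown-labelled ones on the y axis, for 38 mitotic genes (purple) and all 8750 tested genes (grey). The points lie along a falling diagonal, with Ect2 and Top2a far to the upper left and Birc5 to the lower right.

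The promoters of these genes are shown because the genes are known for shared late cell cycle elements, and both called and uncalled genes carried them. RefSeq promoter windows (300 bases, 250 of them before the annotated start, on GRCm38.p6) were matched for 34 of the 40 genes, with 37 windows in all. They were searched on both strands. The NF-Y box was taken as the letters CCAAT, which read as ATTGG when the box lies on the opposite strand. The core of the cell cycle homology region was taken as TTTGAA, which reads as TTCAAA from the opposite strand, and in 1 place a match of each motif shared a base. The 120 bases before the start of 6 genes follow, 5′ to 3′ on the gene's own strand, with both motifs in capitals. Kif11, Cdc20 and Espl1 were lower, Cenpa was higher, and Top2a and Bub3 were crossed.
Kif11 (chr19:37376262-37376381, plus strand): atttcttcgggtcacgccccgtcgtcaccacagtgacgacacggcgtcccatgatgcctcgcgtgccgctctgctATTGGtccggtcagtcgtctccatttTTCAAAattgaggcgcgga
Cdc20 (chr4:118437344-118437463, minus strand): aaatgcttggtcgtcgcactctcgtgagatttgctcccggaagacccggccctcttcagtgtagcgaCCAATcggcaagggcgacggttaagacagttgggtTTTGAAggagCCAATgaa
Espl1 (chr15:102296173-102296292, plus strand): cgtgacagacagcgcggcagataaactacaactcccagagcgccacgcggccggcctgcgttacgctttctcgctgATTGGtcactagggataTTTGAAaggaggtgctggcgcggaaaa
Cenpa (chr5:30666766-30666885, plus strand): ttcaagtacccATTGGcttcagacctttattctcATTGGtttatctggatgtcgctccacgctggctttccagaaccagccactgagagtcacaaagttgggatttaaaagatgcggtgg
Top2a (chr11:99024190-99024309, minus strand): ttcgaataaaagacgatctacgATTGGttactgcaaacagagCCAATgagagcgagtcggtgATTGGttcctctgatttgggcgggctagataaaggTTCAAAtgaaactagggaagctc
Bub3 (chr7:131560250-131560369, plus strand): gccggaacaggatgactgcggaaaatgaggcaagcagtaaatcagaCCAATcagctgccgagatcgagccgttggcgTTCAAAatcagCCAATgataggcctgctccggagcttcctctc

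The windows of the mitotic genes held these letters in a greater share than promoters at large. CCAAT was found in 28 of 37 windows (75.7%), against 37.4% of all 32851 windows of the RefSeq table and 39.0% of those of the genes tested. TTTGAA was found in 30 windows (81.1%), against 17.9% and 11.9%. Both stood in 26 windows (70.3%), against 6.95% and 5.09%. Bub3, Ect2 and Prc1 each had overlapping windows that held the same matches, which the window counts take more than once. By gene, 25 of 34 held CCAAT, 27 held TTTGAA and 23 held both. Among the genes that were lower, 16 of 18 with a window held TTTGAA and 13 held CCAAT. Among those not past the threshold, 7 of 11 held TTTGAA and 9 held CCAAT, and among the 3 higher genes with a window, 2 and 1 did. The Cenpa window holds its TTTGAA 16 bases after the start, outside the stretch printed. A match is a description of the letters and not of a bound site, and the shares were not tested.

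**Figure D3:**
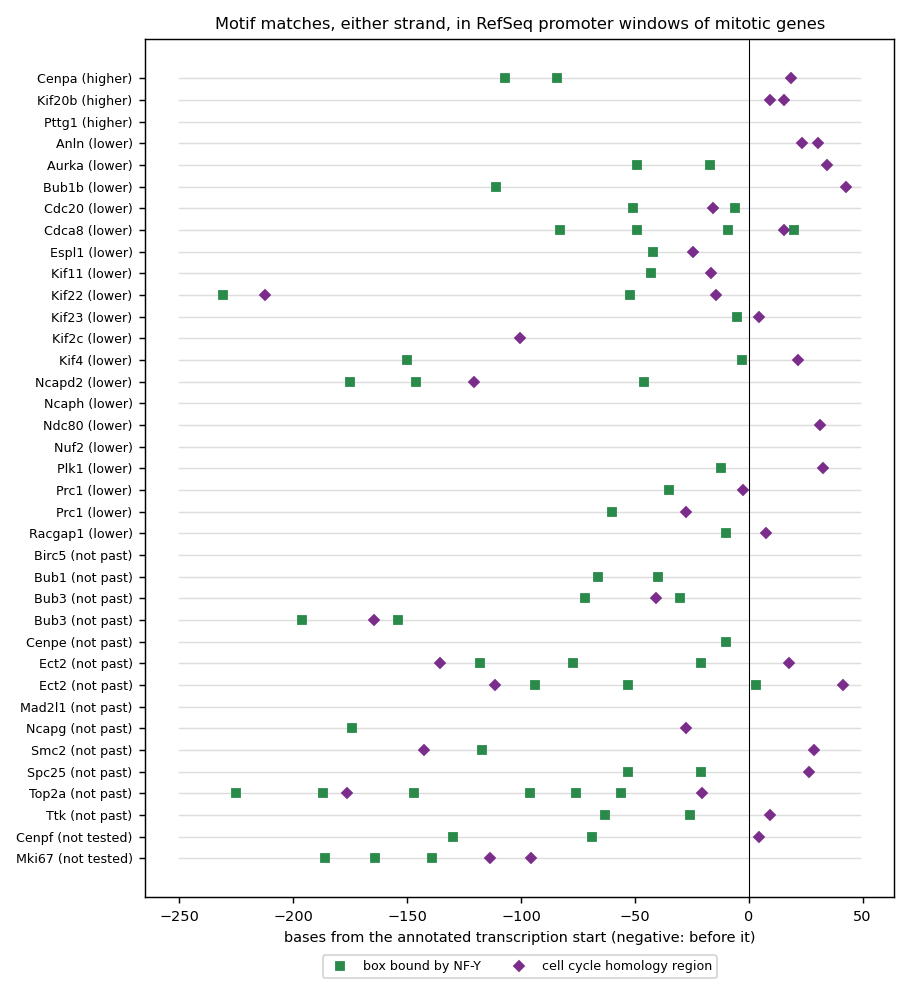
Positions of NF-Y boxes (green squares) and cell cycle homology region cores (purple diamonds) on either strand in 37 promoter windows of 34 mitotic genes, in bases from the annotated start. Rows are ordered by the call in the comparison of libraries, and both marks appear among lower, higher and uncalled genes.

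Of the spindle assembly checkpoint genes, 2 of 6 were lower (33.3%) and 4 did not pass. The counts by role here and below are small and stand beside 41.2% lower and 27.4% higher among all genes tested. Bub1b, which encodes the BubR1 pseudokinase of the mitotic checkpoint complex, was at 31.1 and 30.5 FPKM in the scrambled-labelled libraries and at 15.9 and 16.1 in the knockdown-labelled ones. The groups did not overlap, and Bub1b fell by 0.91 on the log2 scale (SE 0.020, limma adjusted p = 1.6e-04), a 1.93-fold difference. Unless stated, limma's adjusted p-values of single genes come from the fit without a block. With batch as a block, limma's adjusted p was 0.0053 for Bub1b and 0.021 for Plk1 (0.0024 without it). Cdc20, the activator of the anaphase-promoting complex that the checkpoint restrains, went from 269 and 265 to 181 and 183 FPKM (fell by 0.55, adjusted p = 2.3e-04), and it was the most abundant of the 40 in every library but the knockdown-labelled ones, where Cenpa was higher. Bub3, the WD-repeat partner of Bub1 and BubR1, was at 151 and 121 FPKM in the scrambled-labelled libraries and at 118 and 149 in the knockdown-labelled ones. Bub1, the kinase that recruits other checkpoint proteins to kinetochores, was at 6.66, 5.14, 5.03 and 6.59 FPKM in scrambled 1, scrambled 2, knockdown 1 and knockdown 2. Both genes thus overlapped completely between groups, with a log2 difference of -0.02 and standard errors of 0.189 for Bub3 and 0.186 for Bub1. Ttk, the kinase Mps1 at the head of the checkpoint, had 8.86 and 6.48 FPKM against 5.12 and 6.93, and its difference of -0.30 did not pass (SE 0.221, adjusted p = 0.35). Mad2l1, the inhibitor Mad2 that binds Cdc20, was close to level, at 95.9 and 96.1 against 91.5 and 92.6 FPKM (difference -0.06, adjusted p = 0.059). Its sign depended on the setting, since the difference turned to 0.33 when a trend with annotated gene length was taken out.

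All 7 genes of the spindle poles and of spindle assembly were lower, and the replicates of each lay together. Tpx2 (Entrez 72119), which activates Aurora A and nucleates microtubules near chromatin, had the steepest drop of the group, 2.86-fold, at 41.1 and 39.4 against 14.0 and 14.2 FPKM from 5813 and 6769 fragments against 2433 and 2251. Aurka, the Aurora A kinase itself, was at 86.5 and 84.9 FPKM in the scrambled-labelled libraries and at 55.1 and 55.7 in the knockdown-labelled ones. It fell by 0.62 on the log2 scale (SE 0.020, adjusted p = 2.0e-04), less than its activator. Plk1, the Polo-like kinase of centrosome maturation and mitotic entry, went from 79.4 and 76.3 to 57.3 and 59.8 FPKM. Plk1 fell by 0.40 on the log2 scale, the smallest drop of the group, and had the widest standard error among the 25 genes whose replicates lay together (0.037, adjusted p = 0.0024).

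The 4 kinesins of this group fell by 1.40-fold to 1.93-fold. Kif11, the Eg5 motor that pushes the poles apart, went from 17.5 and 17.0 to 9.47 and 9.54 FPKM (fell by 0.80, adjusted p = 1.7e-04). Kif4, a chromokinesin that also works at the central spindle, had 4.79 and 4.60 against 2.44 and 2.43 FPKM, from no fewer than 575 fragments in any library. Kif2c, the microtubule depolymerase MCAK, went from 32.4 and 31.6 to 20.6 and 20.7 FPKM, a 1.55-fold difference equal to that of Aurka. Kif22, the chromokinesin Kid, went from 48.9 and 48.0 to 34.4 and 34.8 FPKM (fell by 0.47, adjusted p = 3.1e-04).

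Of the chromosomal passenger complex, which corrects faulty attachments and then moves to the spindle midzone, 3 of 4 subunits were lower. Its kinase Aurkb stood at 51.8 FPKM in scrambled 1 and 2 and at 22.2 and 22.7 in knockdown 1 and 2, a 2.31-fold difference (fell by 1.17, SE 0.019). Incenp, the scaffold that activates Aurora B, went from 21.7 and 21.1 to 10.4 and 10.5 FPKM, a 2.04-fold difference (fell by 0.96, adjusted p = 1.6e-04). Cdca8, which encodes borealin, had 123 and 122 against 81.0 and 82.7 FPKM (fell by 0.57, adjusted p = 2.2e-04). The subunits that were lower thus differed among themselves in size, from 1.50-fold to 2.31-fold. Birc5, the subunit survivin, was at 61.3 and 72.1 FPKM in the scrambled-labelled libraries and 61.5 and 53.3 in the knockdown-labelled ones. Replicate 1 of both groups was level, replicate 2 was not, and the difference of -0.21 did not pass (SE 0.125, adjusted p = 0.25).

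The kinetochore and centromere genes went in both directions, with 2 of 6 tested lower (33.3%), 2 higher (33.3%) and 2 not past. All genes tested also went both ways, with 41.2% lower and 27.4% higher. Within the 4-subunit Ndc80 complex, which holds the microtubule end, the subunits did not move alike. Ndc80 went from 24.2 and 23.1 to 12.0 FPKM in both knockdown-labelled libraries (fell by 0.93, SE 0.028, adjusted p = 1.9e-04). Its dimer partner Nuf2 had 12.1 and 11.9 against 8.73 and 8.83 FPKM and fell by 0.41, less than Ndc80 (adjusted p = 3.6e-04). The inner pair did not follow: Spc25 had 36.4 and 35.1 against 32.4 and 34.2 FPKM and did not pass (difference -0.10, adjusted p = 0.12). Spc24 had 110 and 109 against 119 and 122 FPKM and passed as higher at a log2 change of 0.14 (SE 0.020, adjusted p = 0.0091). That call was not stable. It was lost with batch as a block (adjusted p = 0.075), without scrambled 1 (0.089) or scrambled 2 (0.098) and after quantile normalization (0.14), and the sign turned to -0.08 when the trend with gene length was taken out.

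Cenpa, the histone H3 variant that marks the centromere, rose the most of the 38. It was at 127 and 124 FPKM in the scrambled-labelled libraries and at 216 in both knockdown-labelled ones, a 1.72-fold difference (log2 change 0.78, SE 0.019, adjusted p = 1.7e-04) from 6996 and 8336 against 14621 and 13373 fragments. Cenpe, the kinesin that carries chromosomes to the spindle equator, was low and crossed, with 1.58, 1.14, 1.12 and 1.56 FPKM in scrambled 1, scrambled 2, knockdown 1 and knockdown 2, from 199, 174, 173 and 220 fragments. Cenpf, a large protein of the outer kinetochore, was below the filter at 0.536 and 0.520 against 0.640 and 0.683 FPKM.

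Of 7 central spindle and cytokinesis genes, 5 were lower, 1 was higher and 1 did not pass. Racgap1 (Entrez 26934), the GTPase-activating subunit of centralspindlin, had the steepest drop of all 38, from 78.0 and 78.2 to 26.6 and 27.3 FPKM. That is a 2.89-fold difference (fell by 1.50, SE 0.021, adjusted p = 1.6e-04). Kif23, the motor subunit of the same complex, changed less, from 16.9 and 16.4 to 9.55 and 9.63 FPKM (fell by 0.74, adjusted p = 1.8e-04). Ect2, the guanine nucleotide exchange factor that centralspindlin brings to the cortex to activate RhoA, was crossed at 12.8 and 6.81 FPKM in scrambled 1 and 2 and 6.82 and 12.2 in knockdown 1 and 2. Its replicates differed by 1.88-fold and 1.79-fold, and the group difference was -0.03 with a standard error of 0.452. The standard error of Racgap1, which acts in the same pathway, was 0.021.

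The other genes of the midzone mostly followed Kif23. Prc1, which bundles antiparallel microtubules, went from 34.7 and 33.5 to 17.4 and 17.5 FPKM (fell by 0.93, adjusted p = 1.8e-04). Kif20a, the motor MKLP2 that carries the passenger complex to the midzone, went from 60.5 and 59.1 to 35.2 and 35.5 FPKM (fell by 0.74). Anln, the furrow scaffold anillin, had 8.18 and 8.0 against 5.13 and 5.18 FPKM (fell by 0.56). Kif20b, a motor of late cytokinesis, was the exception in this group. Its level was 1.86 and 1.84 against 2.54 and 2.59 FPKM, and it rose 1.38-fold (log2 change 0.32, SE 0.015, adjusted p = 4.0e-04), from 354 and 426 against 593 and 553 fragments.

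**Figure D4:**
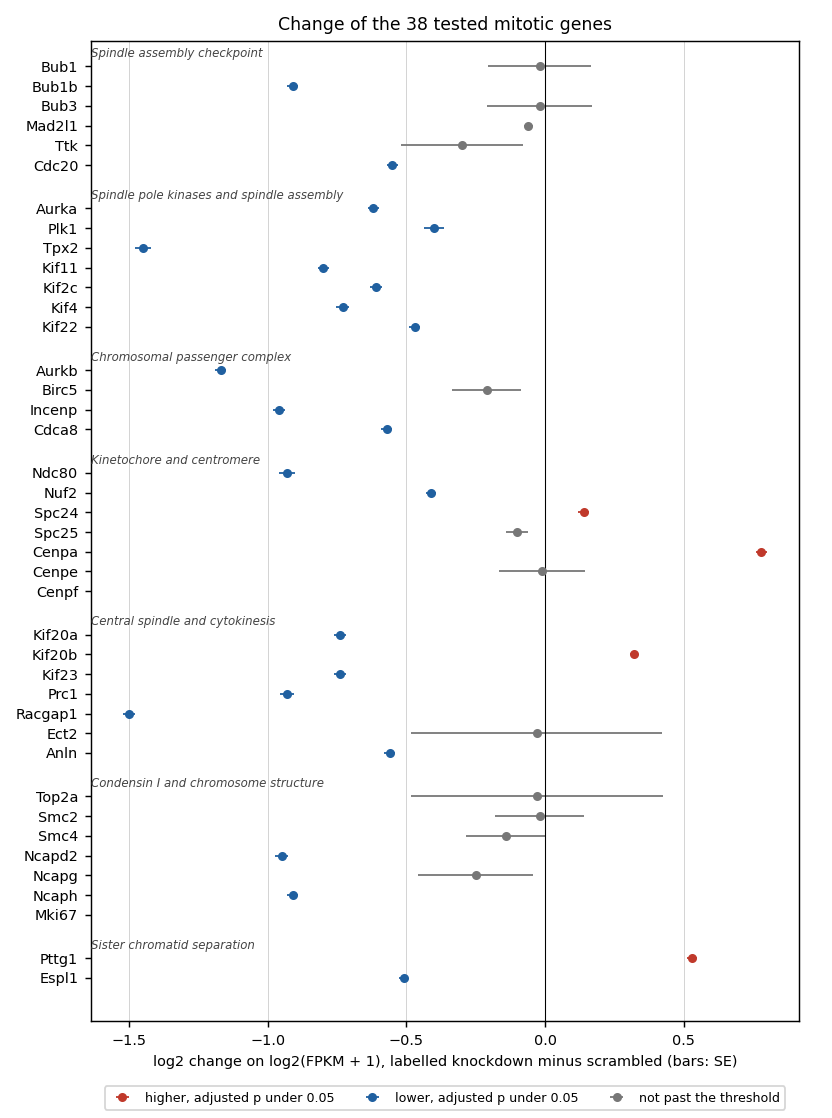
Log2 change (knockdown-labelled minus scrambled-labelled libraries, bars give the standard error, 2 libraries a group) of the 38 tested mitotic genes by role, coloured by limma's call. Racgap1 at -1.50 and Cenpa at 0.78 are the ends of the range, the widest bars belong to Ect2 and Top2a, and Cenpf and Mki67 have no point because they were not tested.

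Condensin I, the ring complex that compacts mitotic chromosomes, was divided between its subunits. The regulatory subunits Ncapd2 and Ncaph were lower: Ncapd2 went from 24.0 and 23.2 to 11.7 and 11.8 FPKM, a 2.01-fold difference (fell by 0.95, adjusted p = 1.7e-04). Ncaph, the kleisin that closes the ring, went from 22.5 and 22.2 to 11.3 and 11.5 FPKM (fell by 0.91, adjusted p = 1.6e-04). The ATPase subunits, which condensin I and condensin II share, were both crossed. Smc2 had 8.65 and 6.98 against 6.83 and 8.56 FPKM (difference -0.02, SE 0.162). Smc4 had 14.2 and 11.8 against 10.6 and 12.9 FPKM (difference -0.14, SE 0.145, adjusted p = 0.52). Ncapg, the other HEAT-repeat subunit, showed replicate differences of the same orientation, at 16.5 and 12.6 against 10.5 and 13.7 FPKM, and did not pass (difference -0.25, adjusted p = 0.42). The subunits of one complex therefore stood in different replicate patterns, which are common in the table (64.4% of all genes tested together, 18.0% crossed).

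Top2a, the topoisomerase that untangles sister chromatids, had the widest standard error of the 38, 0.454. It was at 37.0 FPKM in scrambled 1 and 35.4 in knockdown 2, and at 20.5 in both scrambled 2 and knockdown 1. Those values rested on 3122 and 2102 fragments in scrambled 1 and 2 and on 2115 and 3359 in knockdown 1 and 2. The groups overlapped completely, and the group difference was -0.03. Mki67, which encodes the proliferation antigen Ki-67 that coats mitotic chromosomes, was below the filter at 0.766, 0.942, 0.914 and 0.765 FPKM.

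The pair that acts at sister chromatid separation went in opposite directions. Espl1, the protease separase, was at 4.86 and 4.85 FPKM in the scrambled-labelled libraries and at 3.07 and 3.14 in the knockdown-labelled ones (fell by 0.51, SE 0.017, adjusted p = 2.0e-04). It did not pass in the fit with batch as a block and the annotated length trend removed (-0.17, adjusted p = 0.055). Pttg1, the securin that holds separase inactive until the checkpoint is satisfied, rose 1.47-fold, with 12.8 and 12.7 against 18.6 and 18.9 FPKM (log2 change 0.53, SE 0.019, adjusted p = 2.3e-04). The replicates of both genes lay together.

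Other genes of mitosis and the cell cycle, from lists that do not overlap with the 40, were also more often lower than higher. Those lists too were chosen with earlier results of these data known. Of 165 tested over 8 lists, 99 were lower (60.0%), 21 were higher (12.7%) and 45 did not pass, with a median log2 change of -0.34. Over all genes tested, the shares were 41.2% lower and 27.4% higher, so lower calls outnumbered higher ones there too. Of the same 165, 28 (17.0%) were crossed. The lists with the greatest share of lower genes were the regulators of mitotic transcription (14 of 18 lower, 1 higher, median -0.46) and the other spindle and cytokinesis genes (19 of 26 lower, 1 higher, median -0.45). In the first, the atypical repressors E2f7 and E2f8 went from 3.00 in both libraries to 1.10 and 1.13 FPKM and from 3.24 and 3.25 to 1.36 and 1.39. In the second, Tacc3, a microtubule regulator that Aurora A recruits to the spindle, had a 2.32-fold difference. Mapre1, the plus-end protein EB1, had a 2.25-fold difference.

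Genes acting upstream, on cohesin, at kinetochores and in replication were also more often lower than higher, as were all genes tested (41.2% lower, 27.4% higher). The genes named from each list are those of smallest p, so they do not stand for the list. Of 17 genes of cyclin B and Cdk1 control, 11 were lower (64.7%) and 1 higher (5.88%), with a median of -0.27. Ccna2, cyclin A2, went from 130 and 128 to 62.9 and 63.6 FPKM. Bora, which helps Aurora A to activate Plk1, went from 8.54 and 8.28 to 3.77 and 3.79 FPKM. Of 15 genes of cohesin and its regulators, 9 were lower (60.0%) and 2 higher (13.3%), with a median of -0.64. Among the lower ones were the kleisin Rad21, which separase cuts (2.23-fold), and Cdca5, sororin (1.96-fold). Of 32 other kinetochore and checkpoint genes, 16 were lower and 6 higher (median -0.25), with Ska3, of the complex that tracks microtubule ends, 2.24-fold and Zw10, which brings dynein to kinetochores, 2.46-fold lower. Of 36 DNA replication genes, 20 were lower (55.6%) and 3 higher (8.33%), with a median of -0.28. Rrm2, a subunit of ribonucleotide reductase, and Mcm4, of the replication helicase, had the smallest p, with 2.56-fold and 2.17-fold differences.

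Of 18 genes of the anaphase-promoting complex, 9 were lower and 6 higher (33.3%), with a median of -0.12, shares near the 41.2% and 27.4% of all genes tested. Its scaffold subunit Anapc1 went from 9.38 and 9.36 to 3.25 and 3.33 FPKM, and Cdc16, another subunit, had a 1.84-fold difference. The 3 subunits particular to condensin II went 3 ways. Ncaph2 rose from 191 and 190 to 296 and 302 FPKM (log2 change 0.65, SE 0.020), Ncapg2 went from 3.74 and 3.67 to 2.60 and 2.63, and Ncapd3, named to complete the complex after its values were seen, did not pass. Cell cycle inhibitors were more often higher than lower, with 9 of 14 higher (64.3%), 3 lower (21.4%) and a median of 0.57. Among them Btg2, an antiproliferative gene, rose from 3.86 and 3.82 to 10.2 FPKM in both libraries, and Ccng1, a p53 target, from 13.1 and 13.0 to 29.0 and 29.5. The lists were not tested against each other or against all genes.

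**Figure D5:**
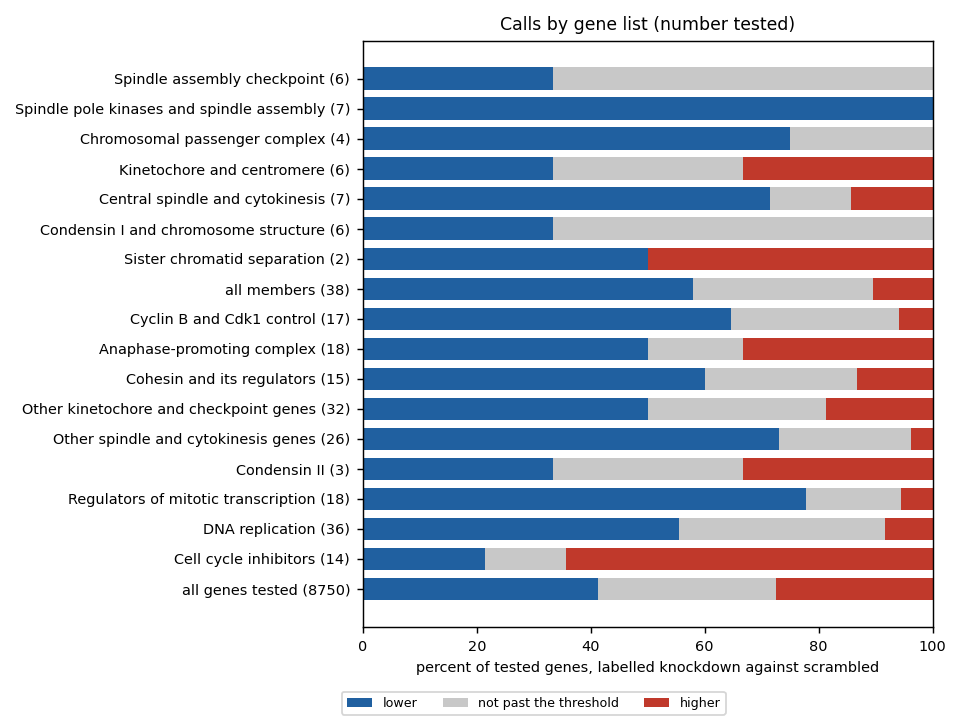
Percent of tested genes in each role and list that limma called lower (blue), higher (red) or neither (grey) in the knockdown-labelled libraries, with the number tested in brackets. All 38 mitotic genes show 57.9% lower against 41.2% over all genes tested, and the inhibitors list shows 64.3% higher.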

How the data were processed

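Polysome RNA of 2 libraries labelled scrambled and 2 labelled knockdown was measured. Per the labels' protocols, capture beads took up the messenger RNA before heat fragmentation. The authors deposited FPKM, 1 column per library, per the labels. The builds GRCm38, mm10 and GRCm39 are named without a role in the submitters' processing notes, with the aligner, counter, strand setting and annotation not given in the sources used here. All 4 columns were used and 0 were left out.

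Whole fragments were solved from ratios of low values (relative tolerance 3e-08) for 15790 genes and 99.3% of those tested, and served for depth, gene length up to a constant, and counting error, which does not cover PCR copies. The deposited FPKM became log2(FPKM + 1), and genes with a mean of at least 1 FPKM were fitted with limma 3.58.1 (R 4.3.3, trended eBayes, 3.06 degrees of freedom per gene), two-sided, adjusted by Benjamini-Hochberg over 8750 genes, threshold 0.05. The script was tested on simulated data. Members and lists were chosen with earlier results of these data known. Named were all members and, of each other list, the 2 genes of smallest p.

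Replicate number and batch coincide in the labels, which pair the replicates by batch. Replicate differences had Pearson's r of -0.83 between groups across genes. The fit with batch as a block was an alternative, beside other pseudocounts, filters, scalings, standard errors held at counting error, removal of the trend with gene length, and each library left out. Further tools were Python 3.11.15, pandas 2.3.3 and matplotlib 3.10.9.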

Additional observations from a re-analysis of the deposited data

Results flagged for a closer look

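For 11 of the 40 mitotic genes the difference between the libraries labelled knockdown and scrambled had opposite signs in batch 1 and batch 2. All but Mki67 are the 10 genes described above whose replicates differed in opposite directions past the cut-off. That replicate pattern held for 26.3% of the 38 mitotic genes tested and for 22.1% of all genes tested, so it is not particular to mitotic genes. Each batch held 1 library of each group, so the difference between batches was not tested. Ect2 and Top2a both went from -0.82 in batch 1 to 0.76 in batch 2 (log2), a change of 1.58. Bub1 and Bub3 both went from -0.35 to 0.30, changes of 0.65 and 0.66. Cenpe went from -0.28 to 0.26 (a change of 0.54), Smc2 from -0.30 to 0.26 (0.56) and Smc4 from -0.39 to 0.11 (0.51). Ttk went from -0.69 to 0.08 (0.77) and Ncapg from -0.61 to 0.12 (0.73). Birc5 went from 0.00, barely above no difference, to -0.43, a change of -0.43, and Mki67, below the filter, from 0.12 to -0.14 (a change of -0.25).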

How the results depend on the processing

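All 22 lower mitotic genes stayed lower and past the threshold under each of 14 other settings in which they were tested, and 25 of the 26 called genes kept their call. The exception was Spc24, which turned to -0.08 with the length trend removed, both without the replicate block (adjusted p = 0.23) and with it (adjusted p = 0.46). Length here was that implied by the FPKM values. The annotated exon length (GENCODE M21) had been tried first and was replaced when its values for some of these genes looked too long, a choice made after seeing the data. Neither the fits with the annotated length nor the crossed pairing described below are among the 14 settings. With the annotated length, Mad2l1 turned to 0.33 (adjusted p = 0.0027, and 0.039 with the replicate block), Spc25 passed at -0.30, and Espl1 did not pass with the block (-0.17). Across genes, the log2 change and implied length had Spearman's rho of -0.38 over 8693 genes and -0.03 over the 38. Mad2l1 also passed, at -0.13, with the implied length trend removed. With batch as a replicate block 3 mitotic genes were higher and 22 lower, and over all genes 2205 and 3417. Pairing scrambled 1 with knockdown 2 and scrambled 2 with knockdown 1, a block added after seeing the data, gave 4 higher and 28 lower (2962 and 4282 over all genes). That block was drawn from the crossing seen in these same values and takes out its spread, so these counts test nothing. Leaving out each library in turn gave 3 to 4 higher and 22 lower, and over all genes 2187 to 2283 higher and 3432 to 3460 lower. Median-centred libraries gave a median of 0.15 over all genes and of -0.32 over the mitotic genes, with 4 higher and 22 lower as before. The mitotic median minus that of all genes was -0.47 in the main fit. Centring shifts every gene of a library alike, so it cannot change that value. The value was -0.49 with either other pseudocount, -0.42 after quantile normalization, -0.36 with the implied length trend removed and -0.34 with the annotated one. Without scrambled 1 or knockdown 1 it was -0.32. Without the filter 3819 genes of the table were higher, and with a filter of 5 FPKM 1583 were higher and 2213 lower. Every mitotic gene had at least 173 fragments in each library, while 2 libraries a group leave the crossed genes unresolved.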

Other observations

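The MCM helicase, which unwinds DNA at replication forks, was divided between replicate patterns like condensin I. Both patterns are common in the table, with 64.4% of all genes tested together and 18.0% crossed. These genes were chosen after their values were seen. Mcm4 and Mcm6 had replicates together and were lower, Mcm4 from 35.6 and 34.9 to 16.2 and 16.4 FPKM and Mcm6 from 70.0 and 69.1 to 48.9 and 49.8. Mcm2, Mcm3, Mcm5 and Mcm7 were crossed with scrambled 1 and knockdown 2 high. Mcm5 had 211 and 149 FPKM in scrambled 1 and 2 and 147 and 207 in knockdown 1 and 2. The Cdk1 partners Cks1b and Cks2 were crossed in the other orientation. Cks1b had 383 and 587 FPKM in scrambled 1 and 2 and 596 and 380 in knockdown 1 and 2.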
